A study of Mus musculus with 5 samples.

Results

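The 38 genes described here are 17 glycolytic enzymes, 5 regulators of glycolytic flux, 6 components of cellular oxygen sensing and 10 other targets of the hypoxia response. They were listed by name, with earlier results of these data known, and make up 38 of the 30046 features in the deposited count table. Their levels were measured by bulk RNA-seq in Cxcl12-GFP high tdTomato+ cells sorted from mouse femurs at P21 after tamoxifen at E12.5. Dlx5CE-E12.5 cells (3 libraries, numbered 1, 2 and 3) came from mice of genotype Cxcl12(GFP/+); Dlx5(CreER/+); R26R(tdTomato/+), and Fgfr3CE-E12.5 cells (2 libraries, which the labels number 2 and 3) from mice of genotype Cxcl12(GFP/+); Fgfr3-iCreER; R26R(tdTomato/+). The first Cre is expected in fetal perichondrial cells and the second in fetal chondrocytes, so that the comparison asks how marrow stromal cells of these origins differ after birth. All mice carried GFP in 1 Cxcl12 allele, and the cells of littermates were pooled by genotype. By the study's methods, the Dlx5CE-E12.5 libraries were sequenced as long paired-end reads and the Fgfr3CE-E12.5 libraries as short single-end reads on another sequencer, whereas the series' design text names a single sequencer. Read type, read length, sequencer and lineage therefore cannot be told apart.

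Glycolysis turns glucose into pyruvate in the cytosol. Most of its steps can be carried out by several isozymes that differ in regulation and tissue, and lactate dehydrogenase then returns pyruvate to lactate when mitochondria do not take it up. Oxygen is sensed by prolyl hydroxylases (the Egln genes), which mark the alpha subunits HIF-1alpha (Hif1a) and HIF-2alpha (Epas1) for destruction through the von Hippel-Lindau protein. When oxygen falls, these subunits persist, pair with Arnt and bind short motifs with the core ACGTG or GCGTG near genes of glycolysis, mitophagy, pH control and collagen modification. The marrow is a tissue of low oxygen tension, and its Cxcl12-abundant reticular (CAR) cells surround blood vessels.

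The motif was searched on either strand in the 250 bases upstream of the RefSeq start nearest to each gene's annotated start (GRCm38.p6). A promoter was matched for 35 of the 38 genes, and none for Epas1, Bnip3l and Ndrg1. At least 1 copy of ACGTG or GCGTG was found in 28 of the 35 promoters (80.0%), against 38.6% of all 32851 promoters of the same length. The genes were listed for their part in glycolysis and the hypoxia response, and the promoters were not matched for base composition. The contrast is therefore a description and not a test. By role, the motif was present in 11 of 17 promoters of glycolytic enzymes, 5 of 5 of flux regulators, 4 of 5 of oxygen sensing genes and 8 of 8 of the other hypoxia targets. For the genes that differed most between the lineages, 30 bases around the copy nearest to the start are shown, 5′ to 3′ on the strand of the gene, with each copy on either strand in capitals (CACGT and CACGC are the motifs read from the opposite strand).
Egln1, chr8:124949306-124949335, minus strand: ggggccgtggtgtACGTGcagcgcgcgcgg
Pdk4, chr6:5496333-5496362, minus strand: agttgtggagaggGCGTGgaggtagataaa
Pfkfb4, chr9:108991772-108991801, plus strand: tttgacggatgggGCGTGcttagtccaaaa
Gapdh, chr6:125165801-125165830, minus strand: ccaCACGCttggtGCGTGcacatttcaaaa
Ddit4, chr10:59951869-59951898, minus strand: cgacctggaggggGCGTGgcctcgccggga
Hk2, chr6:82774490-82774519, minus strand: caatgagcacatcCACGTcactgtccgggg
Pfkfb3, chr2:11553973-11554002, minus strand: cctccgcgccgtgACGTGccaagctgtgac
These 7 genes were shown because they hold the motif, and 3 of them were higher in Fgfr3CE-E12.5 cells and 4 in Dlx5CE-E12.5 cells. No motif was present in the searched windows of Gpi1 and Pkm, which were also higher in Fgfr3CE-E12.5 cells. Pkm had 2 RefSeq promoters, however, and the 1 farther from its annotated start held the motif.

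The glycolysis and hypoxia response genes did not move together. Of 33 that passed the count filter, 10 passed both thresholds of edgeR's quasi-likelihood test, 5 in each direction. The filter was 10 CPM (read count scaled by library size), before normalization, reached in 2 or more libraries. The CPM values printed are normalized. The thresholds were an adjusted p below 0.05 and a log2 fold change beyond 1 in either direction. That share of 30.3% stood beside a background of 29.5% of all 10093 genes tested (13.1% higher in Dlx5CE-E12.5 cells and 16.4% higher in Fgfr3CE-E12.5 cells). Higher in Fgfr3CE-E12.5 cells were Gpi1, Pkm, Pdk4, Pfkfb4 and Egln1. Higher in Dlx5CE-E12.5 cells were Gapdh, Hk2, Pfkfb3, Epas1 and Ddit4. By adjusted p alone, 19 of the 33 passed (57.6%, 10 higher in Dlx5CE-E12.5 cells and 9 in Fgfr3CE-E12.5 cells), against 48.4% of all genes (23.4% and 25.0%). The libraries of the lineages did not overlap for 26 of the 33 genes (78.8%), against 68.9% of all genes. The median log2 fold change, Fgfr3CE-E12.5 over Dlx5CE-E12.5 throughout, was 0.04 over these genes and 0.01 over all genes. By role, the medians were 0.08 for 15 glycolytic enzymes, 0.43 for 5 flux regulators, -0.05 for 5 oxygen sensing genes and -0.45 for 8 other hypoxia targets. The value for the other hypoxia targets depended on the count filter, since it became -0.05 when the remaining members of low count entered.

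**Figure D1:**
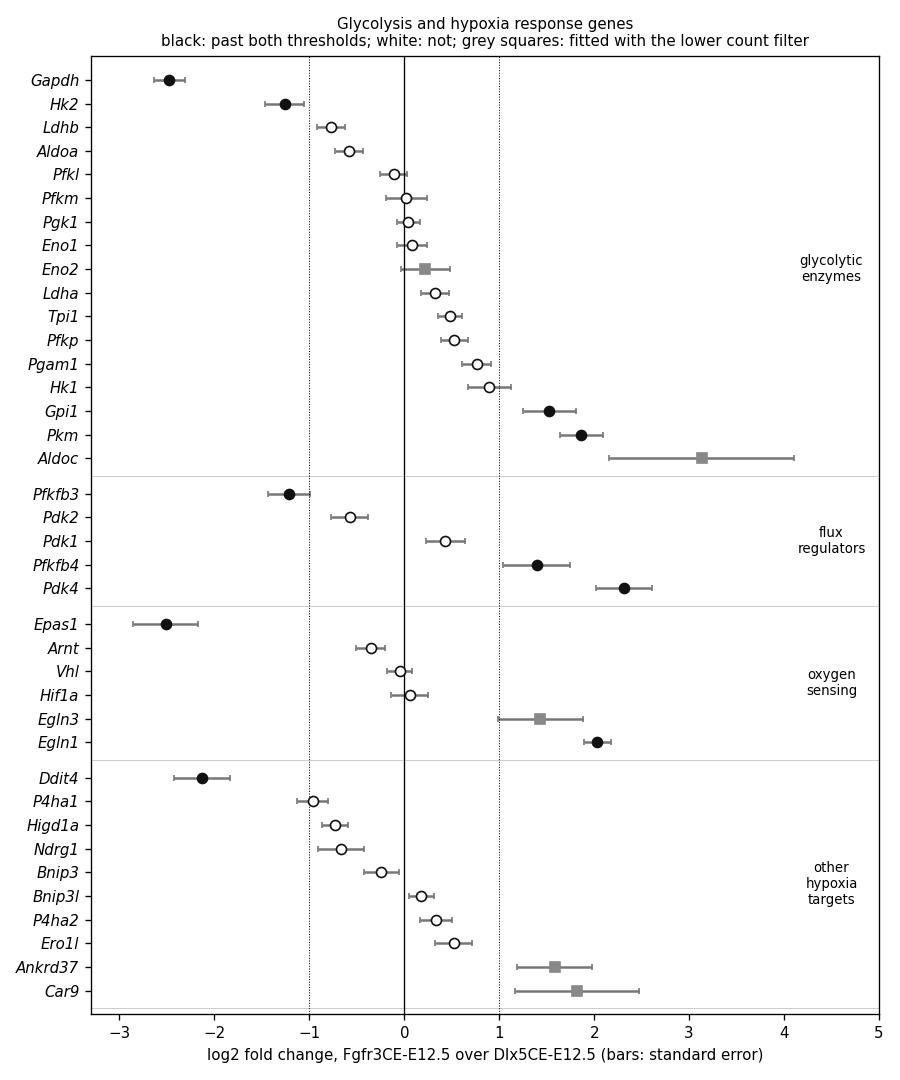
Log2 fold change of each of the 38 genes (x axis, Fgfr3CE-E12.5 over Dlx5CE-E12.5, bars standard error) by role, with dotted lines at the fold threshold of 1 on either side. Black points passed both thresholds, 5 on each side of 0, white points did not, and grey squares are the 5 genes fitted with the lower count filter.

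In the sorted cells, none of the 8 CAR markers was at 0. Cxcl12 held 22364 to 23577 CPM in Dlx5CE-E12.5 cells and 8488 and 6104 CPM in Fgfr3CE-E12.5 cells. Of the 8, 5 passed both thresholds higher in Dlx5CE-E12.5 cells, Kitl and Adipoq among them, and 1 in the other direction. Of all genes, 13.1% and 16.4% passed in these directions. The 1 was Foxc1, a transcription factor of CAR cells named after its values were seen, at 36.7 to 59.2 CPM against 331 and 378 CPM. Total counts were 22035650 to 32563758 in Dlx5CE-E12.5 libraries and 56355203 to 58166285 in Fgfr3CE-E12.5 libraries. The cre sequence held 416 to 467 counts in Dlx5CE-E12.5 libraries and 1 count in each Fgfr3CE-E12.5 library. The iCre.ERT2 sequence held 451 to 521 counts in the former and 4802 and 3762 counts in the latter, and eyfp, which no label names, 2999 to 3428 counts against 0 and 6. Leukocyte markers were higher in Fgfr3CE-E12.5 cells, with none of the 10 pan-leukocyte and 12 neutrophil markers at 0. All 22 passed both thresholds, beside 16.4% of all genes in that direction. Some of the neutrophil markers met the count filter only through the Fgfr3CE-E12.5 libraries. The pan-leukocyte list summed to 390 to 509 CPM against 1260 and 2627 CPM. The neutrophil list summed to 2652 to 3317 CPM against 7569 and 18628 CPM. Both lists were over 2-fold higher in Fgfr3CE-E12.5 replicate 3 than in replicate 2. Chondrocyte markers summed to 1.80 to 7.69 CPM in Dlx5CE-E12.5 cells and to 3066 and 380 CPM in Fgfr3CE-E12.5 replicates 2 and 3. Erythroid transcripts summed to 38293, 18800 and 24734 CPM in the former and to 14672 and 21816 CPM in the latter. Of the 10 in that list, 2 passed both thresholds higher in Dlx5CE-E12.5 cells and 0 in the other direction, beside 13.1% and 16.4% of all genes. In bulk samples, fewer cells of a type and less RNA per cell cannot be told apart.

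Among the hexokinases, which trap glucose as its 6-phosphate, the isozymes moved in opposite directions. Hk2, the inducible form (chr6:82725025-82774454), held 108, 98.0 and 108 CPM in Dlx5CE-E12.5 replicates 1 to 3 and 52.8 and 34.5 CPM in Fgfr3CE-E12.5 replicates 2 and 3. The lineages did not overlap, and the difference was 2.40-fold (log2 fold change -1.26, SE 0.21, adjusted p = 0.00257). Hk1, the form of broad expression, held 71.9, 54.4 and 54.7 CPM against 88.3 and 136 CPM (log2 fold change 0.90, SE 0.22, adjusted p = 0.0147), which missed the fold threshold. Per kilobase of exon, the Hk1 to Hk2 ratio was 0.467, 0.389 and 0.354 in Dlx5CE-E12.5 cells and 1.17 and 2.77 in Fgfr3CE-E12.5 cells. Of this pair, the more abundant transcript was thus Hk2 in every library of the former and Hk1 in both of the latter. Hk3, which is not listed, lay above both in Fgfr3CE-E12.5 cells (14.4 and 33.3 CPM per kilobase, against 10.3 and 16.0 for Hk1). In Dlx5CE-E12.5 cells Hk3 lay below both (3.26 to 3.76). Without Fgfr3CE-E12.5 replicate 3, the log2 fold change of Hk2 was -0.93 and no longer passed the fold threshold.

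In the steps from glucose 6-phosphate to the trioses, 1 enzyme passed both thresholds. Gpi1, the isomerase that makes fructose 6-phosphate (chr7:34201330-34230336), held 157, 129 and 126 CPM in Dlx5CE-E12.5 cells and 265 and 525 CPM in Fgfr3CE-E12.5 cells. Both Fgfr3CE-E12.5 libraries lay above the other lineage, although they were 1.98-fold apart from each other. The log2 fold change was 1.53 (SE 0.28, adjusted p = 0.00429). The phosphofructokinases, which commit the sugar to glycolysis, differed little. Pfkl was the most abundant of them at 246 to 287 CPM and 236 to 260 CPM, with overlapping libraries and a log2 fold change of -0.11 (SE 0.14, adjusted p = 0.542). Pfkm was near 0 change at 0.02 (SE 0.22), and Pfkp rose by adjusted p alone, at 0.52 (SE 0.14, adjusted p = 0.0209). In the annotation, the Pfkp transcripts overlap those of Pitrm1, with which 17.1% of their 50-base windows were shared. Aldoa, the main aldolase transcript, fell by adjusted p alone from 634 to 688 CPM down to 410 and 464 CPM (log2 fold change -0.58, SE 0.15, adjusted p = 0.0152). Tpi1, which interconverts the trioses, rose by adjusted p alone at 0.48 (SE 0.13, adjusted p = 0.0208).

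Gapdh, which oxidizes glyceraldehyde 3-phosphate and is widely used as a reference gene, was lower in Fgfr3CE-E12.5 cells. It held 231, 204 and 235 CPM in Dlx5CE-E12.5 cells and 36.1 and 44.3 CPM in Fgfr3CE-E12.5 cells. Both Fgfr3CE-E12.5 values were far below the others, and the log2 fold change was -2.47 (SE 0.17, adjusted p = 7.8e-05) in counts on the gene alone. The enzymes of the following steps did not share this difference. Pgk1, the next enzyme, held 82.5 to 86.8 CPM and 85.8 to 87.4 CPM (log2 fold change 0.04, SE 0.12, adjusted p = 0.791). Pgam1 rose by adjusted p alone, from 129 to 157 CPM up to 220 and 260 CPM (log2 fold change 0.76, SE 0.15, adjusted p = 0.00554). Eno1, the enolase of most tissues, held 459 to 555 CPM and 488 and 558 CPM (log2 fold change 0.08, SE 0.16, adjusted p = 0.696).

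Pkm, the pyruvate kinase gene of most tissues other than liver and red cells (chr9:59656368-59679375), showed the largest rise among the glycolytic enzymes that passed the filter. It held 248, 220 and 233 CPM in Dlx5CE-E12.5 cells and 635 and 1066 CPM in Fgfr3CE-E12.5 cells. The Dlx5CE-E12.5 values lay close together and the Fgfr3CE-E12.5 values well above them and apart, with a 3.64-fold difference (log2 fold change 1.86, SE 0.23, adjusted p = 0.000798). The gene's counts do not separate its splice forms. Of the lactate dehydrogenase subunits, Ldha did not pass, at 545 to 630 CPM against 705 and 733 CPM (log2 fold change 0.32, SE 0.15, adjusted p = 0.112). Ldhb, the heart-type subunit, fell by adjusted p alone from 167 to 203 CPM down to 110 and 100 CPM (log2 fold change -0.78, SE 0.15, adjusted p = 0.00508). The Ldha to Ldhb ratio per kilobase of exon was accordingly 1.29, 1.55 and 1.76 in Dlx5CE-E12.5 cells and 3.05 and 3.46 in Fgfr3CE-E12.5 cells.

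**Figure D2:**
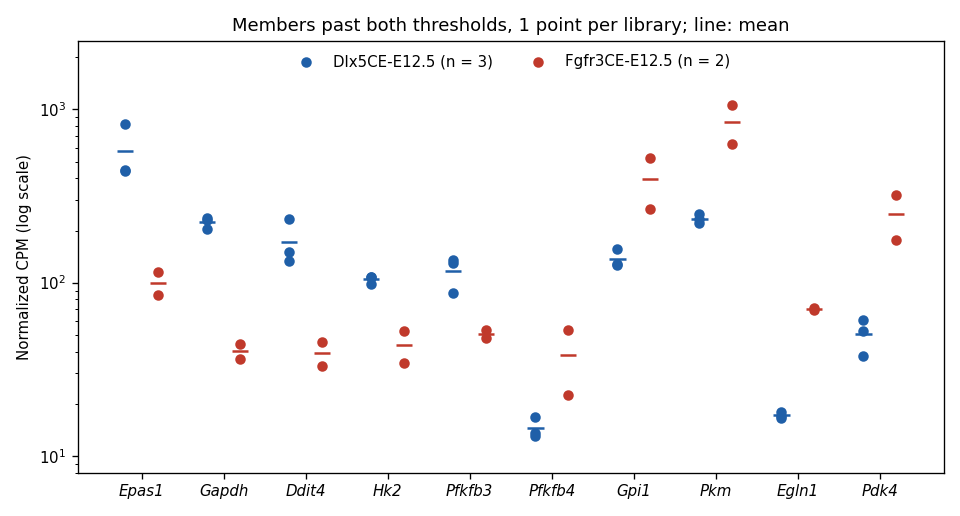
Normalized CPM (log scale) of the 10 genes past both thresholds in each library, Dlx5CE-E12.5 in blue (3 points) and Fgfr3CE-E12.5 in red (2 points), with lines at the means. The lineages do not overlap for any of the 10, while the red points of Pfkfb4, Gpi1, Pkm and Pdk4 lie farthest apart.

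The low Gapdh counts stood beside counts on copies of the gene. Several glycolytic genes have processed pseudogenes that match them over long stretches, and 82.5% of the 50-base windows of Gapdh, 72.2% of those of Eno1 and 68.0% of those of Pgk1 occurred in another annotated transcript. Coding stretches of 60 bases show how alike they are, with positions counted from 1 at the first coding base of the parent gene and, for Eno1 and Gapdh, with the bases that differ between the pair in capitals.
Gapdh, coding bases 287 to 346: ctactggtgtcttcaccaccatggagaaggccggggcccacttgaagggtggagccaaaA
Gm13394, chr2:28933610-28934609, minus strand: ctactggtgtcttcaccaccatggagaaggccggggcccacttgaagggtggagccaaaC
Eno1, coding bases 1174 to 1233: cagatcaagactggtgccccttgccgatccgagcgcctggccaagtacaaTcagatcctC
Gm4735, chr2:80837141-80838442, plus strand: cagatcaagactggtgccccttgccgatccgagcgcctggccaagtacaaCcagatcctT
Pgk1, coding bases 2 to 61: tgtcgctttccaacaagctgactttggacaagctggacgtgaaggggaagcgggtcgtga
Pgk1-rs7, chr12:10898986-10900240, minus strand: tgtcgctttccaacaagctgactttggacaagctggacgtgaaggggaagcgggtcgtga
Gm5537, chr3:58102996-58104247, minus strand: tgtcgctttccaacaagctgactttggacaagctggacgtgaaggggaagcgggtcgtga
The Pgk1 stretch was identical in all 3 features, so a read from it can come from any of them.

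Counts on these copies also differed between the lineages. The Gapdh pseudogene Gm13394 held 1378, 856 and 1225 counts in Dlx5CE-E12.5 libraries and 4611 and 6697 in Fgfr3CE-E12.5 libraries, which was 20.5% to 21.8% of the Gapdh counts in the former and 219% and 251% in the latter. Pgk1-rs7 held no count in any Dlx5CE-E12.5 library and 2250 and 2923 counts in Fgfr3CE-E12.5 libraries, whereas Gm5537 held 182, 113 and 112 counts in the former and none in the latter. Of these Pgk1 copies with the same 60-base stretch, each was thus at 0 in 1 lineage. Gm4735, the Eno1 pseudogene, held 25.7% to 28.2% of the Eno1 counts in Dlx5CE-E12.5 cells and 73.1% and 94.8% in Fgfr3CE-E12.5 cells. Eno1b, a copy annotated as protein-coding, held 104 to 130 CPM in Dlx5CE-E12.5 cells and 213 and 307 CPM in Fgfr3CE-E12.5 cells (log2 fold change 1.16, SE 0.19, adjusted p = 0.00267), where Eno1 itself did not pass. Summed with copies that share at least 50% of their windows with it, Gapdh remained higher in Dlx5CE-E12.5 cells but by less (log2 fold change -1.50, adjusted p = 0.000715), while Eno1 became higher in Fgfr3CE-E12.5 cells by adjusted p (0.72, adjusted p = 0.0157), as did Pgk1 (0.48, adjusted p = 0.0154). With every annotated pseudogene that shares 10 or more windows added, a choice made after seeing the data, these values were -1.65, 0.62 and 0.45, and Ldhb passed both thresholds at -1.04. Egln1, Epas1, Ddit4, Hk2 and Pfkfb4 shared no window, and Pdk4 and Pfkfb3 shared 1.43% and 0.654%. Gpi1 and Pkm shared 25.3% and 34.4%, and counts on their pseudogenes were 11.5% to 14.5% and 15.1% to 16.8% of their own in Dlx5CE-E12.5 cells, against 0.581% and 3.17% for Gpi1 and 0.221% and 0.160% for Pkm in Fgfr3CE-E12.5 cells. The part of read type, or of read assignment between copies, in the values of genes with copies was not tested.

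**Figure D3:**
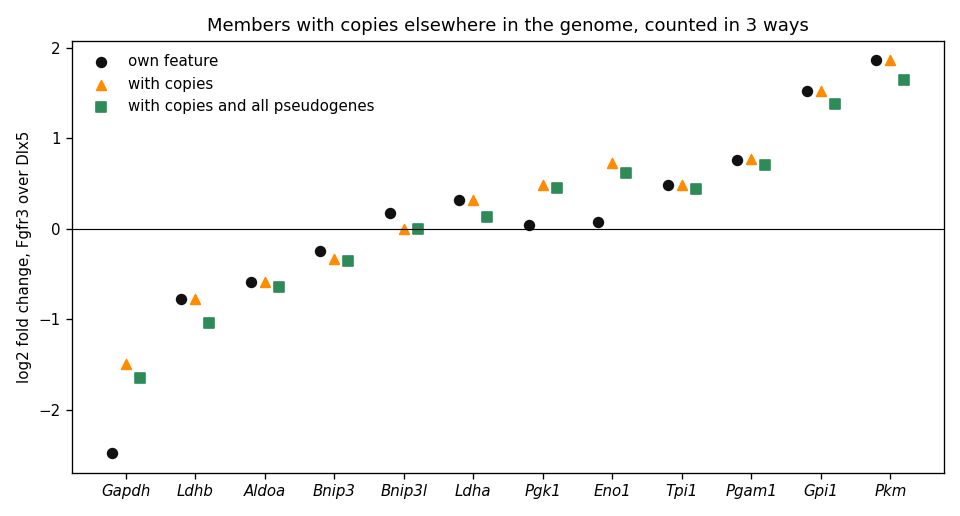
Log2 fold change (y axis, Fgfr3CE-E12.5 over Dlx5CE-E12.5) of 12 genes with copies elsewhere in the genome, counted on the gene alone (circles), with its close copies (triangles) and with copies and all matching pseudogenes (squares). Gapdh moves from -2.47 to -1.50 and -1.65, Eno1 and Pgk1 move up from near 0, and Pkm stays at 1.65 or above.

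Regulators of flux differed in opposite directions. Pfkfb3 and Pfkfb4 make fructose 2,6-bisphosphate, the strongest activator of phosphofructokinase. Pfkfb3 (chr2:11471433-11554077) held 86.6, 130 and 135 CPM in Dlx5CE-E12.5 cells and 53.0 and 48.0 CPM in Fgfr3CE-E12.5 cells (log2 fold change -1.21, SE 0.22, adjusted p = 0.00397). Pfkfb4 (chr9:108991778-109032228) held 13.6, 13.0 and 16.8 CPM against 22.4 and 53.5 CPM (log2 fold change 1.39, SE 0.35, adjusted p = 0.0156). The libraries did not overlap for either gene, but Pfkfb4 rested on Fgfr3CE-E12.5 replicate 3, without which its log2 fold change was 0.70 (adjusted p = 0.0718), and without Dlx5CE-E12.5 replicate 2 it also missed the test (adjusted p = 0.0543). Per kilobase of exon, Pfkfb3 exceeded Pfkfb4 4.11-, 6.45- and 5.17-fold in Dlx5CE-E12.5 cells and 1.52-fold in Fgfr3CE-E12.5 replicate 2, and was 0.579 of it in replicate 3.

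Pyruvate dehydrogenase kinases restrain the conversion of pyruvate to acetyl-CoA inside mitochondria by phosphorylating pyruvate dehydrogenase. Pdk4, which fasting and fatty acids induce in many tissues (chr6:5483351-5496309), held 37.6, 52.4 and 60.7 CPM in Dlx5CE-E12.5 cells and 321 and 177 CPM in Fgfr3CE-E12.5 cells. Both Fgfr3CE-E12.5 libraries were far above the others, with replicate 2 the higher, and the difference was 4.96-fold (log2 fold change 2.31, SE 0.29, adjusted p = 0.000949). Pdk1, the form best known as a HIF target, did not pass, at 11.6 to 11.9 CPM against 17.5 and 14.4 CPM (log2 fold change 0.43, SE 0.21, adjusted p = 0.123). Pdk2 fell by adjusted p alone, from 46.2 to 61.0 CPM down to 39.8 and 30.4 CPM (log2 fold change -0.57, SE 0.20, adjusted p = 0.0462).

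In the oxygen sensing group, the HIF alpha subunits parted. Hif1a held 227, 249 and 239 CPM in Dlx5CE-E12.5 cells and 301 and 196 CPM in Fgfr3CE-E12.5 cells, with overlapping libraries (log2 fold change 0.06, SE 0.20, adjusted p = 0.832). Epas1 (chr17:86753700-86833410) held 829, 445 and 442 CPM against 115 and 84.9 CPM. Dlx5CE-E12.5 replicate 1 stood well above replicates 2 and 3, and both Fgfr3CE-E12.5 values were below all of them, a 5.71-fold difference (log2 fold change -2.51, SE 0.35, adjusted p = 0.00129). Without replicate 1 it was still called, and over all left-out libraries the log2 fold change ran from -2.68 to -2.15. Per kilobase of exon, Hif1a was 0.260, 0.531 and 0.513 of Epas1 in Dlx5CE-E12.5 cells and 2.47 and 2.19 times Epas1 in Fgfr3CE-E12.5 cells, so the order of the alpha subunit transcripts was inverted.

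Egln1, the main oxygen-sensing prolyl hydroxylase (chr8:124908587-124949324), was higher in Fgfr3CE-E12.5 cells. It held 18.0, 17.0 and 16.6 CPM in Dlx5CE-E12.5 cells and 69.8 and 71.1 CPM in Fgfr3CE-E12.5 cells. The values within each lineage were almost alike, and the lineages were 4.10-fold apart (log2 fold change 2.03, SE 0.14, adjusted p = 8.2e-05). Arnt, the shared HIF beta subunit, was at -0.35 (SE 0.15, adjusted p = 0.0969), and Vhl at -0.05 (SE 0.13, adjusted p = 0.775), so that neither passed.

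Of the other hypoxia targets, 1 of 8 passed both thresholds (12.5%, against 29.5% of all genes). By adjusted p, 3 passed (37.5%, against 48.4% of all genes), all higher in Dlx5CE-E12.5 cells. Ankrd37 and Car9, of the same list, lay in the other direction in the fit with the lower count filter. Of these, Ankrd37 passed both thresholds (1.58, adjusted p = 0.0158). Ddit4, an inhibitor of mTORC1 that stress also induces (chr10:59949669-59951834), held 133, 151 and 232 CPM in Dlx5CE-E12.5 cells and 45.7 and 32.9 CPM in Fgfr3CE-E12.5 cells. The Dlx5CE-E12.5 libraries were all higher, replicate 3 most so, with a 4.38-fold difference (log2 fold change -2.13, SE 0.29, adjusted p = 0.00126). Of 11 genes that rise during tissue dissociation, none was at 0. Of these, 4 passed both thresholds higher in Dlx5CE-E12.5 cells and 0 in the other direction, beside 13.1% and 16.4% of all genes. By sign, 9 of the 11 were higher in Dlx5CE-E12.5 cells and 2 were not. Their summed level was 15499, 15681 and 23717 CPM against 9732 and 9046 CPM, also with Dlx5CE-E12.5 replicate 3 highest, and its part in the Ddit4 difference was not tested. P4ha1, a catalytic subunit of collagen prolyl 4-hydroxylase, fell by adjusted p alone, from 190 to 220 CPM down to 118 and 91.6 CPM (log2 fold change -0.96, SE 0.16, adjusted p = 0.00303). Its isozyme P4ha2 held 50.5 to 68.2 CPM and 78.1 and 70.7 CPM (log2 fold change 0.33, SE 0.17, adjusted p = 0.139). Higd1a, a small protein of the inner mitochondrial membrane, fell by adjusted p alone (log2 fold change -0.73, SE 0.14, adjusted p = 0.00482).

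The mitophagy receptors Bnip3 and Bnip3l did not pass (log2 fold changes -0.24 and 0.18, adjusted p = 0.324 and 0.302). Ndrg1, a stress-responsive gene, was at -0.67 (SE 0.24, adjusted p = 0.0594), and Ero1l, the oxidase that supports disulfide formation in the endoplasmic reticulum, at 0.52 (SE 0.20, adjusted p = 0.0646). For Ndrg1, Ero1l, P4ha2 and Bnip3l, the libraries of the lineages did not overlap although the adjusted p missed the threshold.

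The remaining 5 genes had too few counts for the filter and were fitted together with all genes that reached 1 CPM in 2 or more libraries, of which 29.5% of 13235 passed both thresholds and 16.6% did so higher in Fgfr3CE-E12.5 cells. Aldoc and Car9 met this lower filter only through the Fgfr3CE-E12.5 libraries. Ankrd37, a small HIF target, held 1.79, 2.23 and 3.47 CPM against 8.28 and 6.91 CPM (log2 fold change 1.58, SE 0.39, adjusted p = 0.0158). Egln3, the most hypoxia-inducible prolyl hydroxylase, held 1.37, 2.43 and 1.67 CPM against 3.74 and 6.22 CPM (log2 fold change 1.43, SE 0.45, adjusted p = 0.0379). Aldoc, the brain aldolase, was near the limit of detection, with 0, 4 and 5 counts against 74 and 65 counts (log2 fold change 3.13, SE 0.97, adjusted p = 0.0363), and with no filter it did not pass (adjusted p = 0.0805). Car9, the membrane carbonic anhydrase that is a classical hypoxia marker, held 19, 6 and 5 counts against 78 and 90 counts and did not pass (log2 fold change 1.82, SE 0.65, adjusted p = 0.0592), nor did Eno2, the neuronal enolase, at 5.94 to 7.38 CPM against 7.93 and 7.87 CPM (adjusted p = 0.523). Car9 and Aldoc transcripts were thus scarce in both lineages.

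Levels per kilobase of exon (CPM per kilobase) ordered the genes differently in the lineages. The length was that of all annotated exons of a gene joined, not of 1 transcript. It was 5379 bases for Eno1, whose main transcript held 1978 50-base windows, and 1570 bases for Ldhb, with 1255 windows. The order of genes within a lineage therefore depends on the length used, and transcript length was not tried. In Dlx5CE-E12.5 cells, the highest were Aldoa at 225 ± 9.99 (SD, n = 3), Ldha at 174 ± 14.2, Ldhb at 114 ± 12.7 and Epas1 at 102 ± 39.8. In Fgfr3CE-E12.5 cells, the highest were Ldha at 217 ± 5.94 (SD, n = 2), Pkm at 170 ± 61.0, Aldoa at 150 ± 12.9 and Pgam1 at 121 ± 14.2. The spread of Pkm spans the value of Aldoa, and that of Epas1 the value of Ldhb, so those neighbours cannot be ordered. The spread of Pkm also spans the value of Ldha, although Ldha was above it in both libraries (213 against 127 and 221 against 213). The place of Epas1 rested on Dlx5CE-E12.5 replicate 1, since at 79.7 and 79.1 in replicates 2 and 3 it lay below Ddit4 (85.9 and 132) and Eno1 (85.3 and 87.0). By mean level, Gapdh went from rank 10 to rank 25 of 38 in counts on the gene alone, Pkm from 12 to 2, Pdk4 from 23 to 8 and Egln1 from 30 to 18.

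Ratios of related genes within a library do not depend on scaling between libraries. The lineages did not overlap for 8 of 12 pairs, beside 68.9% of all single genes, a share that was not computed for ratios. These were Hk1/Hk2, Pfkl/Pfkp, Aldoa/Aldoc, Ldha/Ldhb, Pdk1/Pdk4, Hif1a/Epas1, P4ha1/P4ha2 and Pfkfb3/Pfkfb4. The mean log2 ratio, Fgfr3CE-E12.5 minus Dlx5CE-E12.5, differed most, apart from Aldoa/Aldoc where Aldoc was near 0, for Hif1a/Epas1 at 2.49, Pfkfb3/Pfkfb4 at -2.46 and Hk1/Hk2 at 2.17. P4ha1/P4ha2 changed by -1.31, from 4.53, 5.69 and 5.70 to 2.29 and 1.96 on the linear scale. The exact permutation test over libraries, two-sided, gave p = 0.2 for each of the 8 pairs, the smallest value that 3 against 2 libraries allow (0.3 when adjusted over the 12 pairs), so this test cannot reach significance for a single ratio.

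**Figure D4:**
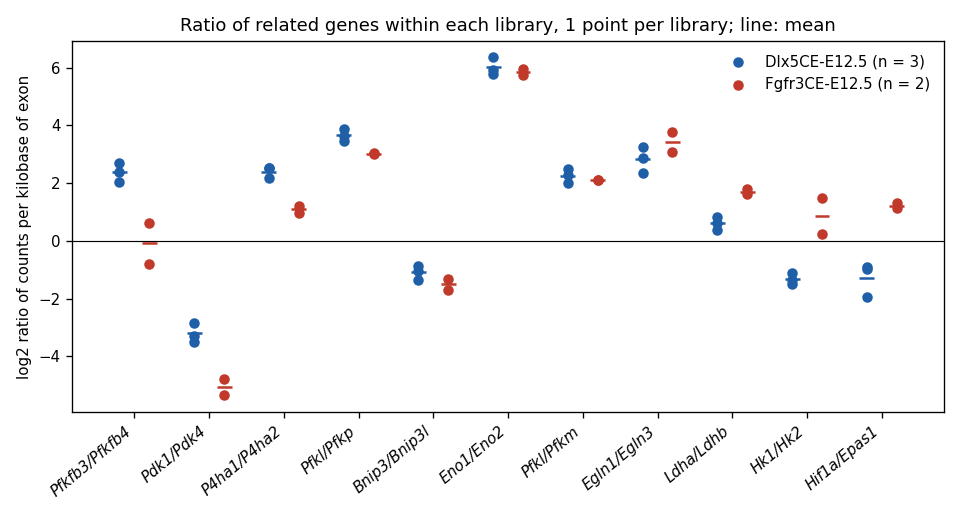
Log2 ratio of related genes, each in counts per kilobase of exon (y axis), in each library, Dlx5CE-E12.5 in blue and Fgfr3CE-E12.5 in red, with lines at the means, for 11 of the 12 pairs (Aldoa/Aldoc, where Aldoc was near 0, is left out). Hif1a/Epas1 and Hk1/Hk2 cross 0 between the lineages, and Eno1/Eno2, Bnip3/Bnip3l, Pfkl/Pfkm and Egln1/Egln3 overlap.

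The 2 Fgfr3CE-E12.5 libraries differed in their markers of other cells and in several of the genes described here. Pfkfb4, Gpi1, Pkm and Hk1 were 2.38-, 1.98-, 1.68- and 1.54-fold higher in replicate 3 than in replicate 2. Also higher there were the pan-leukocyte (2.08-fold), neutrophil (2.46-fold), macrophage (2.26-fold), skeletal muscle (2.18-fold), B lineage (1.79-fold), erythroid (1.49-fold), osteoblast (1.34-fold) and endothelial (1.27-fold) lists. The skeletal muscle list was scarce, summing to only 2.63 and 5.74 CPM in replicates 2 and 3, and none of its genes met the count filter. Egln1 was alike in both (1.02-fold), and Pdk4 was 1.81-fold higher in replicate 2, in which the chondrocyte list was 8.07-fold and the CAR list 1.48-fold higher. Of the genes lower in this lineage, Hk2, Ddit4 and Epas1 were 1.53-, 1.39- and 1.36-fold higher in replicate 2, Pfkfb3 was 1.10-fold higher there, and Gapdh was 1.23-fold higher in replicate 3. The part of these other cells in the differences was not tested.

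**Figure D5:**
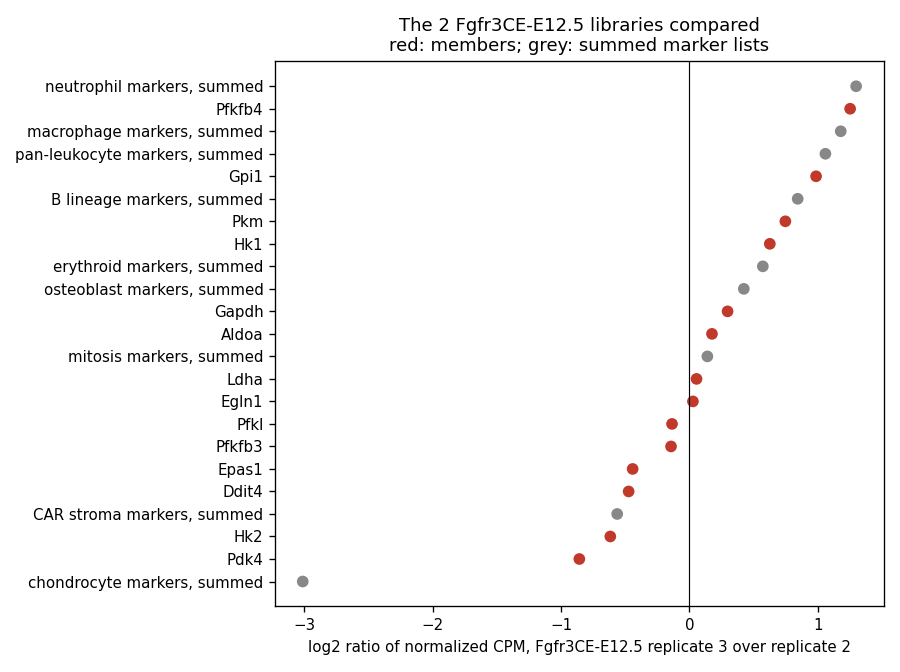
Log2 ratio of normalized CPM in Fgfr3CE-E12.5 replicate 3 over replicate 2 (x axis) for the 10 genes past both thresholds with Hk1, Aldoa, Ldha and Pfkl (red) and for summed marker lists (grey). Pfkfb4, Gpi1, Pkm, Hk1 and Gapdh lie on the side of replicate 3, as do the leukocyte, B lineage, erythroid and osteoblast lists, Egln1 lies near 0, and Pdk4, Hk2, Ddit4, Epas1 and Pfkfb3 lie on the side of replicate 2, as do the CAR and chondrocyte lists.

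Of 15 tested isozymes, transporters and side enzymes of glycolysis, 4 passed both thresholds higher in Fgfr3CE-E12.5 cells and 1 in Dlx5CE-E12.5 cells, with a median log2 fold change of -0.06, beside 16.4% and 13.1% of all genes. The 4 were Hk3, a hexokinase of myeloid cells (2.73, adjusted p = 0.000802), the lactate transporters Slc16a3 (1.54, adjusted p = 0.0222) and Slc16a1 (1.04, adjusted p = 0.00205), and Adpgk (1.21, adjusted p = 0.00969). Slc16a3 and Hk3 were, like Pfkfb4, over 2-fold higher in Fgfr3CE-E12.5 replicate 3, at 70.4 against 22.6 CPM and 123 against 52.9 CPM. The 1 in the other direction was Pdp2, a phosphatase that reverses the action of the Pdk kinases (-2.56, adjusted p = 0.000245).

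Of 22 tested genes of the wider HIF pathway, 4 passed in each direction, beside the same shares of all genes, with a median log2 fold change of -0.08. Vegfa, the angiogenic growth factor, held 4.63, 8.92 and 13.1 CPM in Dlx5CE-E12.5 cells and 613 and 455 CPM in Fgfr3CE-E12.5 cells (log2 fold change 5.91, SE 0.43, adjusted p = 0.000103). That was by far the largest difference of either list, and no Dlx5CE-E12.5 library came near the Fgfr3CE-E12.5 values. Of the Dlx5CE-E12.5 libraries, only replicate 3 reached 10 CPM, so Vegfa met the count filter only through the Fgfr3CE-E12.5 libraries. Also higher in Fgfr3CE-E12.5 cells were Ccng2 (2.33), Mxi1 (1.65) and P4ha3 (2.05), which met the count filter only through the Fgfr3CE-E12.5 libraries. Those higher in Dlx5CE-E12.5 cells included the collagen cross-linking enzymes Loxl2 (-2.67) and Lox (-1.21), and Angptl4, an inhibitor of lipoprotein lipase (-1.79).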

How the data were processed

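The 5 sorted-cell RNA-seq libraries were analysed from the raw count table. The authors aligned the reads to mm10 and deposited whole-number counts per Ensembl gene and reporter, without normalization. The submitters' processing notes name TopHat2 2.0.13, Bowtie2 2.2.1 and HTSeq. The strand setting is not given in the sources used here, so antisense and overlapping genes cannot be separated. Their depth-normalized and rlog tables were not used. The 38 genes and all lists were chosen with earlier results of these data known. Genes were named by role, with pathway genes past both thresholds (at most 6 per direction), up to 3 markers per list by mean CPM, and copies holding at least 1% of a member's counts. A pathway gene that this rule names is not reported here.

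Gene types and coordinates (GRCm38, the build of mm10) came from GENCODE M21, and promoters from RefSeq. Protein-coding genes and reporters that reached 10 CPM before normalization in 2 or more libraries entered the fit in edgeR 4.0.16 (R 4.3.3, TMM, quasi-likelihood test, Benjamini-Hochberg adjustment over all 10093 genes). Genes of lower count were given from a fit with the minimum at 1 CPM. Isozyme ratios had 0.5 counts added. In simulated data for this comparison, 199 of 200 genes changed 4-fold were recovered, with 14 false calls. No library pair agreed within sampling noise. Reads carry no molecular identifiers, so the detection floor of 3 counts covers counting error only, and with 2 or 3 libraries a group their number limits precision. The labels do not name the mice behind each library, so p-values measure the spread between libraries. The libraries sharing a replicate number correlated at 0.13 (number 2) and -0.05 (number 3) in their deviations from the group means. Alternatives covered normalization, test, filters, thresholds, GC and length trends, copies and each left-out library.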

Additional observations from a re-analysis of the deposited data

Results flagged for a closer look

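Counts were checked on copies of the listed genes that no comparison between the lineages used on their own. A copy was flagged where it held at least 10% of the parent gene's counts in every library of a lineage. The highest share in that lineage is given. The Gapdh pseudogene Gm13394 reached 21.8% of the Gapdh counts in Dlx5CE-E12.5 cells and 251% in Fgfr3CE-E12.5 cells. Pgk1-rs7 reached 55.5% of the Pgk1 counts in Fgfr3CE-E12.5 cells and was at 0 in all Dlx5CE-E12.5 libraries. Gm4735 reached 28.2% of the Eno1 counts in Dlx5CE-E12.5 cells and 94.8% in Fgfr3CE-E12.5 cells. Bnip3l-ps reached 16.3% of the Bnip3l counts in Dlx5CE-E12.5 cells, and Gm9790 reached 13.1% of the Higd1a counts in Fgfr3CE-E12.5 cells.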

How the results depend on the processing

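Of the 10 genes past both thresholds, 6 (Gapdh, Pkm, Pdk4, Epas1, Egln1 and Ddit4) passed under every alternative run, and the other 4 lost the call in a test of a change above 2-fold. Genes higher in Dlx5CE-E12.5 cells numbered 5 in the reported fit, 10 with no fold change threshold and 3 in that test. Those higher in Fgfr3CE-E12.5 cells numbered 5, 9 and 3, and 8 with the filter at 1 CPM, which adds genes. Leaving out 1 library gave 4 to 6 in either direction. The median of the glycolytic enzymes, 0.08, was 0.26 by library size alone (which moved the median of all genes to 0.19), 0.22 at 1 CPM, 0.24 with no filter, 0.17 with the replicate block, -0.055 with the length trend removed, 0.48 with copies, 0.45 with all pseudogenes, and 0.044 to 0.25 without 1 library. The median of the other hypoxia targets, -0.45, was -0.27, -0.052, -0.034 and -0.59 under library size alone, 1 CPM, no filter and length trend, and -0.54 to -0.27 without 1 library. The direction turned only for genes near 0 change: Pfkl by library size (0.070), Pfkm with the replicate block (-0.13), GC trend (-0.025) and length trend (-0.17), Pgk1 with the length trend (-0.063), Eno1 with GC (-0.077) and length (-0.055), Hif1a with the replicate block (-0.0092), Vhl by library size (0.13) and GC (0.017), and Bnip3l with length (-0.035). Without 1 library it turned for Pfkl (-0.17 to 0.015), Pfkm (-0.14 to 0.16), Hif1a (-0.21 to 0.39), Vhl (-0.10 to 0.058) and Bnip3 (-0.40 to 0.022). The Eno1/Eno2 log2 ratio difference, -0.16, was 0.47 with copies and -0.28 to 0.010 without 1 library. The cause of these changes was not tested. The lineages share only the replicate numbers, and with the replicate block 5 and 6 genes passed.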

Other observations

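Of 200 annotated pseudogenes that share windows with the listed genes, 148 of them with Gapdh, 115 (57.5%) were higher in Dlx5CE-E12.5 cells with no overlap between the lineages, 75 of these with Gapdh, and 25 (12.5%) were higher in Fgfr3CE-E12.5 cells. Those shares stood beside 59.9% and 9.35% of all 5463 annotated pseudogenes with a count. Read type and lineage cannot be told apart in these counts. The 11 Ldha pseudogenes summed to 77.4, 83.8 and 76.3 CPM in Dlx5CE-E12.5 cells and to 1.11 and 0.996 CPM in Fgfr3CE-E12.5 cells, although Ldha itself differed little. The 6 Pkm pseudogenes summed to 35.3 to 41.6 CPM and to 1.40 and 1.71 CPM.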
